A study of Mus musculus with 2 samples.

Results

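The miR-290 and miR-302 clusters are 2 groups of microRNA (miRNA) genes known from pluripotent cells of the mouse. Their levels are described here in the adrenal glands of newborn mice. The members are 10 of the 1973 miRNA gene rows in the deposited tables, chosen by gene symbol and not by level: Mir291a, Mir292, Mir293, Mir294 and Mir295 of the miR-290 cluster, and Mir302a, Mir302b, Mir302c, Mir302d and Mir367 of the miR-302 cluster. The study sequenced miRNAs from adrenal glands of strain B6NCrl at postnatal day 0, with 1 library for the pair of glands of each of 2 littermates, called pup 2 and pup 1. The series has a single group, with no treatment, mutation or other tissue. Per the labels the glands came from separately numbered pups of 1 pregnancy, yet both carry a single donor identifier; if that meant 1 animal, every pup difference and SD below would be technical. Sex was not recorded.

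A miRNA is cut from a hairpin in a longer transcript, and its bases 2 to 8, the seed, pair with target messenger RNAs and repress them. The miR-290 cluster is transcribed in naive pluripotent cells, the early embryo, trophoblast and primordial germ cells, and the miR-302 cluster comes up as pluripotent cells move towards the epiblast state. Most members share a seed related to that of the miR-17 family, which is found in many dividing cells, and both clusters are known to be switched off as cells differentiate and let-7 accumulates.

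The mature sequences below are shown because their seeds group the members and because a shortened read can fit more than 1 of the near-identical members. They are RefSeq sequences on GRCm38.p6, written 5′ to 3′ with the seed in capitals, and all 10 members had at least 1 entry. There was no 3p entry for Mir292 or Mir302a, so only their 5p sequences appear. The first 5 share the seed AAGUGCU, which no non-member in the table of 1738 mature mouse miRNAs has.
miR-291a-3p: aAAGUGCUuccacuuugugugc
miR-294-3p: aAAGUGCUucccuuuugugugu
miR-295-3p: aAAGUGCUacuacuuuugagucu
miR-302b-3p: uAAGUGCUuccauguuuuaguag
miR-302d-3p: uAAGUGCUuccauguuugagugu
miR-302c-3p: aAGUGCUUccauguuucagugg
miR-293-3p: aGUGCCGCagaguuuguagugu
miR-367-3p: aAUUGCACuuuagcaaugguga
miR-292a-5p: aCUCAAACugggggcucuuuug
miR-302a-5p: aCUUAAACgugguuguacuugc
miR-291a-5p: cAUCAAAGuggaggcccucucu
miR-291b-5p: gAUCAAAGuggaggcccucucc

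miR-302b-3p and miR-302d-3p have their first 17 bases in common and differ at 3 of 23 positions. A read cut back at its 3′ end to those 17 bases or fewer fits both genes. miR-291a-3p and miR-294-3p share 11 bases from their start and differ at 3 of 22. miR-291a-5p has a run of 20 bases in common with miR-291b-5p of Mir291b, a gene of the same cluster outside the member list. The seeds of miR-293-3p and miR-302c-3p were carried by no other mature sequence in the table. That of miR-302c-3p, AGUGCUU, is the shared AAGUGCU stretch shifted along by a base. The first 16 bases of miR-302c-3p lie within both miR-302b-3p and miR-302d-3p, so a read cut back to these fits all 3 genes. The seed of miR-367-3p is that of miR-25, miR-32, miR-363, miR-92a and miR-92b. None of the 18 mature sequences of the members occurred in more than 1 hairpin of the table. Both sequences of Mir291a occurred in no hairpin there, so the search could not show whether they are unique. The deposited counts are per hairpin gene and do not separate the 5p arm from the 3p arm.

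On mm10 the miR-290 cluster lies on the plus strand at chr7:3218626-3220841, a span of 2216 bases that runs from Mir290a to Mir295. Mir294 (ENSMUSG00000077903.1) lies at chr7:3220641-3220724, Mir292 (ENSMUSG00000078041.1) at chr7:3219189-3219270, Mir293 (ENSMUSG00000078035.1) at chr7:3220343-3220422, Mir291a (ENSMUSG00000078008.1) at chr7:3218919-3219000 and Mir295 (ENSMUSG00000077886.1) at chr7:3220773-3220841. All 5 lie opposite an annotated exon of Nlrp12, which is on the minus strand. The miR-302 cluster spans 580 bases at chr3:127545228-127545807, also on the plus strand, and its 5 genes lie opposite an intron of Larp7. In genomic order they are Mir302b (ENSMUSG00000076252.1), Mir302c (ENSMUSG00000065482.1), Mir302a (ENSMUSG00000065552.1), Mir302d (ENSMUSG00000065447.1) and Mir367 (ENSMUSG00000065413.2).

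Levels are CPM, a gene's reads scaled to a library of 1000000 counts, out of 3327743 same-strand miRNA gene counts in pup 2 and 1131762 in pup 1. These were 52.7% of all reads in pup 2 and 50.4% in pup 1; reads that mapped to several places, 32.2% and 34.9%, were not assigned to genes. Counts were not divided by length, since a read covers a whole mature miRNA, so levels of different members are compared in reads. Intervals and floors cover counting error only, because PCR copies of a molecule could not be told from separate molecules. With 1 library per pup there is no test and no p-value between the pups.

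Both clusters gave reads in both adrenal libraries, at low levels. Summed over its 5 members, the miR-290 cluster had 220.0 CPM in pup 2 (732 counts, exact Poisson 95% interval 204 to 236) and 331 CPM in pup 1 (375 counts, 299 to 366.6), a mean of 276 ± 78.8 CPM (SD, n = 2). The miR-302 cluster had 47.8 CPM in pup 2 (159 counts, 40.6 to 55.8) and 48.6 CPM in pup 1 (55 counts, 36.6 to 63.3), a mean of 48.2 ± 0.577 CPM (SD, n = 2). Together the 10 members made up 0.0268% of the miRNA counts in pup 2 and 0.0380% in pup 1. Of the 10 members, 7 reached 10 CPM in both pups, 4 of them in the miR-290 cluster and 3 in the miR-302 cluster; over all 1973 gene rows the share was 13.9%. In whole glands, fewer cells of a type and less RNA per cell cannot be told apart.

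Mir294, the most abundant member, had 102 CPM in pup 2 (341 counts) and 174 CPM in pup 1 (197 counts). It ranked 171st by mean level among the 635 genes with a count. Mir292, which lies between Mir291a and Mir291b, had 44.2 CPM in pup 2 (147 counts) and 76.0 CPM in pup 1 (86 counts). Mir294 stood above Mir292 by the same factor in both glands, 2.32 in pup 2 (1.91 to 2.83 by counting error at 95%) and 2.29 in pup 1 (1.77 to 2.99).

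Mir293, whose 3p seed differs from that of its neighbours, had 48.1 CPM in pup 2 (160 counts) and 53.0 CPM in pup 1 (60 counts). Mir293 and Mir292 changed places between the pups: Mir292 over Mir293 was 0.919 in pup 2 (0.729 to 1.16) and 1.43 in pup 1 (1.02 to 2.03), so their order is not settled. Mir291a had 21.9 CPM in pup 2 (73 counts) and 22.1 CPM in pup 1 (25 counts), almost the same value in both. Mir293 exceeded Mir291a by 2.19-fold in pup 2 (1.65 to 2.93) and 2.40-fold in pup 1 (1.48 to 3.99).

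Mir295, the last hairpin of the cluster, was low although it starts only 48 bases after the end of the Mir294 hairpin. It had 3.31 CPM in pup 2 (11 counts) and 6.19 CPM in pup 1 (7 counts). Mir294 had 31.0 times as many reads as Mir295 in pup 2 (17.1 to 62.7) and 28.1 times as many in pup 1 (13.4 to 70.9). Mir294 and Mir295 thus differed far more within a gland than either did between the glands.

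**Figure D1:**
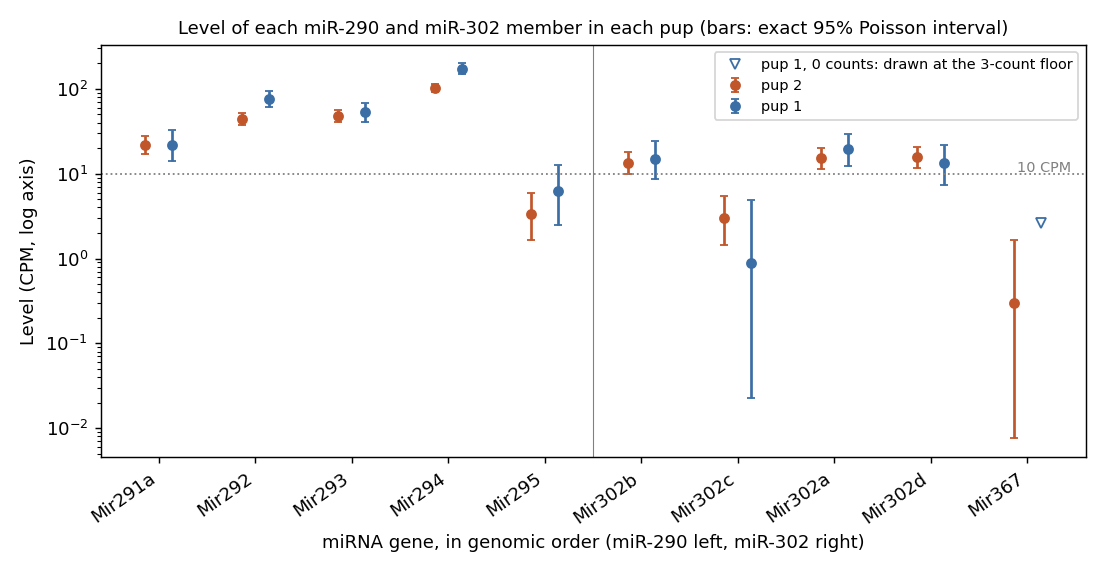
Level of each member in CPM on a log axis, with pup 2 left of pup 1 in each pair; points are single libraries, bars are exact 95% Poisson intervals and the dotted line marks 10 CPM. Mir294 is highest in both pups, Mir295, Mir302c and Mir367 lie below 10 CPM in both, and the open triangle places the 0 counts of Mir367 in pup 1 at its 3-count floor of 2.65 CPM.

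In the miR-302 cluster 3 genes had similar levels. Mir302a had 15.3 CPM in pup 2 (51 counts) and 19.4 CPM in pup 1 (22 counts). Mir302d had 15.6 CPM in pup 2 (52 counts) and 13.3 CPM in pup 1 (15 counts), and Mir302b had 13.5 CPM in pup 2 (45 counts) and 15.0 CPM in pup 1 (17 counts). The order of these 3 genes was not the same in the pups, and the intervals of both ratios between neighbours in the order, Mir302a over Mir302d and Mir302d over Mir302b, included 1 in each pup. Reads that fit more than 1 of Mir302b, Mir302c and Mir302d would not have been assigned to a gene, and how many there were was not tested. Mir291a, the next higher member, exceeded Mir302a by 1.43-fold in pup 2 (0.987 to 2.09) and 1.14-fold in pup 1 (0.615 to 2.11), which counting error allows to be no difference.

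Mir302c and Mir367 were near the limit of detection. Mir302c, which lies between Mir302b and Mir302a, had 3.01 CPM in pup 2 (10 counts) and 0.884 CPM in pup 1 (1 count). Mir302a exceeded it by 5.10-fold in pup 2 (2.56 to 11.3) and 22.0-fold in pup 1 (3.56 to 908). Any reads of Mir302c that also fit Mir302b or Mir302d are not in its count, so its level may be understated. Mir367, the last hairpin of the cluster and the member with an unrelated seed, had 1 count in pup 2, or 0.301 CPM, and 0 in pup 1, which allows up to 2.65 CPM by the floor of 3 counts and 3.26 CPM by the upper bound of the exact interval. Mir302d, whose hairpin ends 43 bases before Mir367, had 52.0 times the reads of Mir367 in pup 2 (8.93 to 2093). In pup 1 Mir302d had 15 counts and Mir367 had 0, and the lower bound of the exact interval of their ratio was 3.59.

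**Figure D2:**
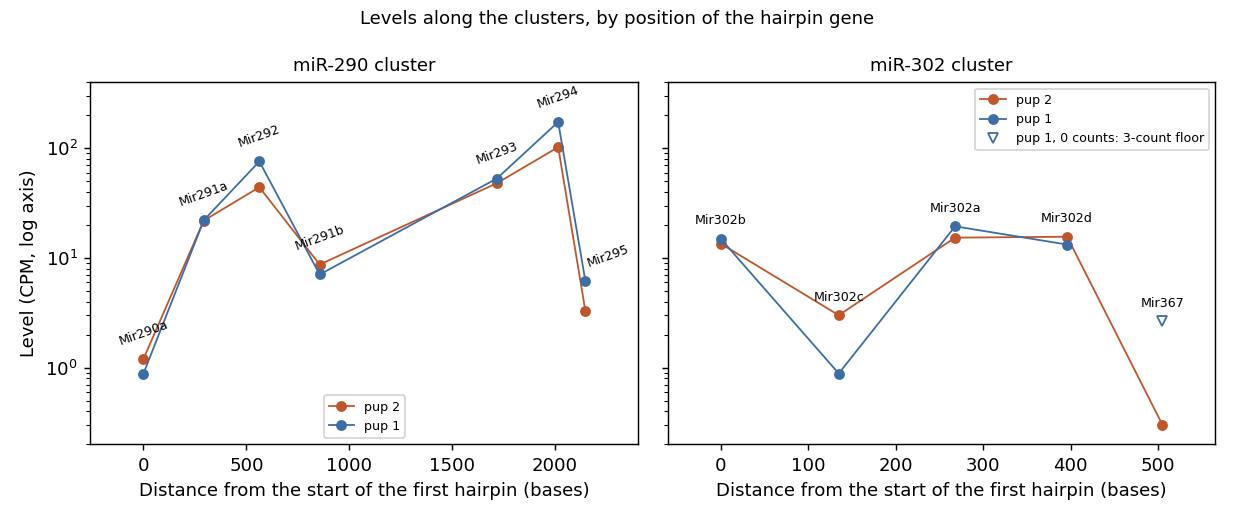
Level in CPM on a log axis against the distance in bases from the start of the first hairpin of each cluster, with the miR-290 cluster on the left and the miR-302 cluster on the right, for pup 2 and pup 1; lines join the genes of a pup. Levels go up and down along the miR-290 cluster in the same way in both pups, with high values at Mir292, Mir293 and Mir294 and low ones at Mir290a, Mir291b and Mir295.

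Both remaining genes of the miR-290 cluster in the tables, which are not among the members, were also low. Mir291b had 8.71 CPM in pup 2 (29 counts) and 7.07 CPM in pup 1 (8 counts), and Mir290a, the first hairpin, had 1.20 CPM in pup 2 (4 counts) and 0.884 CPM in pup 1 (1 count). The level therefore did not follow the order along the cluster: Mir292 stood above both its neighbours Mir291a and Mir291b, and Mir294 above both Mir293 and Mir295. No member had a count on the opposite strand.

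The pups were compared to see how far the members vary among littermates. Mir294 and Mir292 were lower in pup 2, with a ratio of pup 2 to pup 1 of 0.589 (exact conditional 95% interval 0.493 to 0.705) for Mir294 and 0.581 (0.443 to 0.768) for Mir292. Their intervals lay below 1, and those of the 7 other members with a ratio included it. Mir293 had a ratio of 0.907 (0.670 to 1.24) and Mir291a of 0.993 (0.623 to 1.63). None of the 7 members with a mean of 10 CPM or more was 2-fold apart between the pups, where 5.28% of the 284 genes of that level were. Their median log2 ratio was -0.14, and that of the 284 genes was 0.08 with quartiles at -0.22 and 0.36. Mir294, at a log2 ratio of -0.76 with a prior of 1 CPM, had 10 of those genes below it, and Mir292 at -0.77 had 8 below it.

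For the miR-302 genes the depth of pup 1 limited the comparison. Ratios of pup 2 to pup 1 were 0.788 (0.470 to 1.37) for Mir302a, 0.900 (0.505 to 1.68) for Mir302b, 1.18 (0.654 to 2.25) for Mir302d and 3.40 (0.484 to 148) for Mir302c. In the miR-290 cluster, Mir295 had 0.534 (0.189 to 1.63). A level 2-fold higher in pup 2 lay inside the intervals of Mir302c and Mir302d, and a level 2-fold lower inside those of Mir302a, Mir302c and Mir295, as it did for Mir292 and Mir294.

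**Figure D3:**
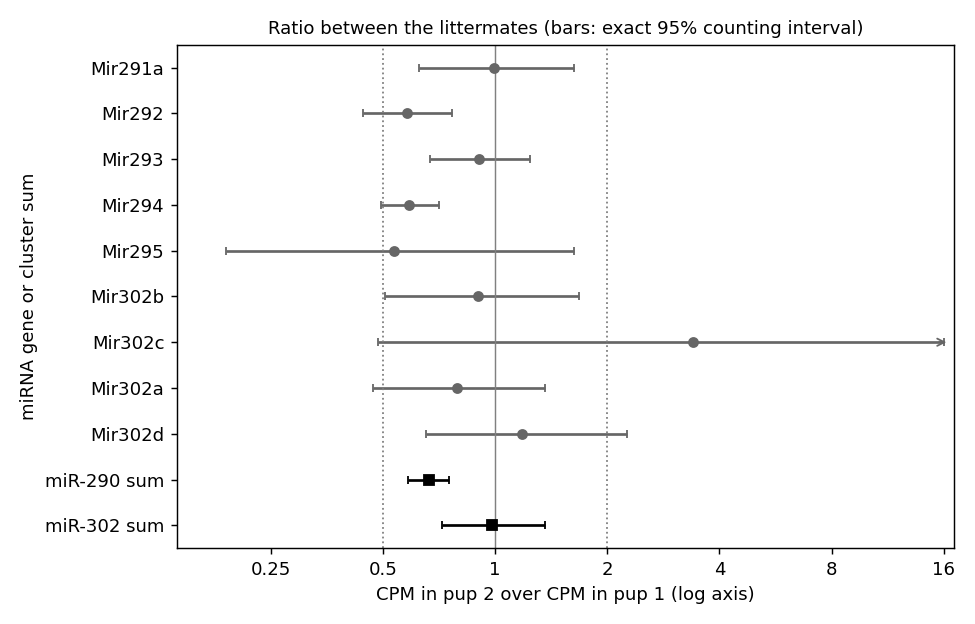
CPM in pup 2 over CPM in pup 1 on a log axis for 9 members and both cluster sums, with exact 95% counting intervals; dotted lines mark 2-fold, and the arrow marks an interval that runs off the axis. The intervals of Mir292, Mir294 and the miR-290 sum lie below 1, and that of the miR-302 sum is centred near 1; Mir367, with 0 counts in pup 1, is left out.

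As a whole the miR-290 cluster was lower in pup 2, while no difference between the pups was resolved for the miR-302 cluster. The miR-290 sum had a ratio of pup 2 to pup 1 of 0.664 (0.585 to 0.754), and the miR-302 sum had 0.983 (0.719 to 1.36). The miR-290 members had 4.60 reads for each miR-302 read in pup 2 (3.87 to 5.50) and 6.82 in pup 1 (5.13 to 9.22). This ratio of clusters does not depend on how the libraries are scaled, and in pup 2 it was 0.675 times that in pup 1 (exact conditional 95% interval 0.476 to 0.948). The interval compares these libraries and leaves out the variation between animals. Without Mir294 the miR-290 ratio was 0.747 (0.624 to 0.897).

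Within the miR-290 cluster Mir294 gave about as many reads as all other members together. Its share of the cluster's member counts was 46.6% in pup 2 (exact Clopper-Pearson 95% interval 42.9 to 50.3) and 52.5% in pup 1 (47.3 to 57.7), a mean of 49.6% ± 4.21 (SD, n = 2). Mir292 gave 20.1% in pup 2 (17.2 to 23.2) and 22.9% in pup 1 (18.8 to 27.5). Mir293 gave 21.9% in pup 2 (18.9 to 25.0) and 16.0% in pup 1 (12.4 to 20.1), with odds against the rest of the cluster 1.47 times those in pup 1 (1.05 to 2.07). Mir291a gave 9.97% in pup 2 (7.90 to 12.4) and 6.67% in pup 1 (4.36 to 9.68), and Mir295 gave 1.50% in pup 2 and 1.87% in pup 1. For the 4 members other than Mir293, the interval of the odds included 1.

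Within the miR-302 cluster, Mir302a, Mir302b and Mir302d shared most reads. Mir302a gave 32.1% in pup 2 (24.9 to 39.9) and 40.0% in pup 1 (27.0 to 54.1). Mir302d gave 32.7% in pup 2 (25.5 to 40.6) and 27.3% in pup 1 (16.1 to 41.0), and Mir302b gave 28.3% in pup 2 (21.5 to 36.0) and 30.9% in pup 1 (19.1 to 44.8). Mir302c gave 6.29% in pup 2 (3.06 to 11.3) and 1.82% in pup 1 (0.0460 to 9.72). No shift between the pups was detectable at this depth.

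**Figure D4:**
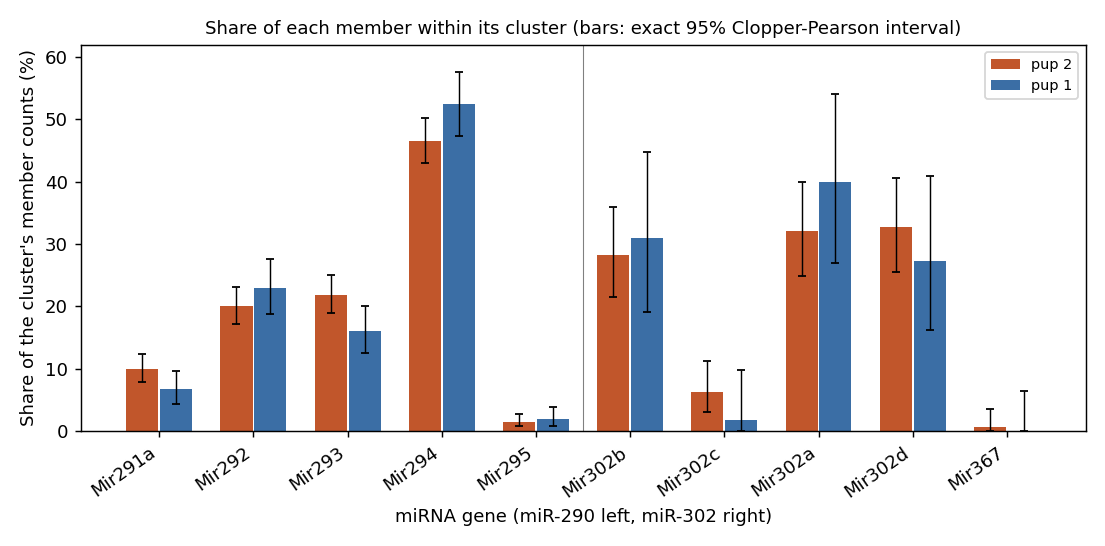
Share of each member in the counts of its cluster in percent, with pup 2 left of pup 1 in each pair and exact 95% Clopper-Pearson intervals. Mir294 has the highest share of the miR-290 cluster in both pups, 46.6% in pup 2 and 52.5% in pup 1, while Mir302a, Mir302b and Mir302d overlap in their intervals.

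Grouped by seed, the genes of the 5 members with AAGUGCU in a 3p sequence shown above, namely Mir291a, Mir294, Mir295, Mir302b and Mir302d, had 157 CPM in pup 2 (144 to 171) and 231 CPM in pup 1 (203 to 260). Mir292 and Mir302a, which had no 3p entry, could not be placed by their 3p seed and are not in this sum. The miR-17 family, whose seed AAAGUGC is the related one shifted along by a base, was far more abundant. All 6 of its genes on the list used reached 10 CPM in both pups, with a sum of 7551 CPM in pup 2 and 6650 CPM in pup 1, led by Mir17 with 3638 CPM in pup 2 and 3322 CPM in pup 1 and by Mir93 with 1469 CPM in pup 2 and 1430 CPM in pup 1. That sum was 34.3 times the miR-290 sum in pup 2 and 20.1 times in pup 1. All 6 genes had a higher CPM in pup 2, with a median log2 ratio of 0.26 and none 2-fold apart. The 6 other genes with the miR-367-3p seed AUUGCAC had 1570 CPM together in pup 2 and 1549 in pup 1, led by Mir92-1 with 1002 CPM in pup 2 and 1026 CPM in pup 1 and by Mir25 with 283 CPM in pup 2, against 268 CPM in pup 1. Reads that fit both Mir92-1 and Mir92-2 would not have been assigned to a gene, and how many such reads there were was not tested.

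The let-7 family, known to rise as pluripotent cells differentiate, was far more abundant than either cluster. Of its 12 listed genes 10 were in the tables. These 10, led by Mirlet7g and Mirlet7i, had 715 reads for each miR-290 read in pup 2 and 611 in pup 1. Reads that mapped to several places were not assigned to genes, and how many of them came from let-7 genes was not tested. For each miR-302 read they had 3294 in pup 2 and 4166 in pup 1. All 10 had a lower CPM in pup 2, although 9 did with TMM, DESeq2 or whole-table scaling, where Mirlet7f-2 was higher. Their median log2 ratio was -0.36, and 1 of them was 2-fold apart.

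The nearest non-members to Mir294 in level, by distance over both pups' log2(CPM + 1), were Mir505 at a distance of 0.161, Mir669c at 0.240 and Mir493 at 0.394. Mir505 had 97.7 CPM in pup 2 and 157 CPM in pup 1, Mir669c 117 CPM in pup 2 and 156 CPM in pup 1, and Mir493 135 CPM in pup 2 and 177 CPM in pup 1. With 2 samples this likeness means only a similar level in each pup.

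**Figure D5:**
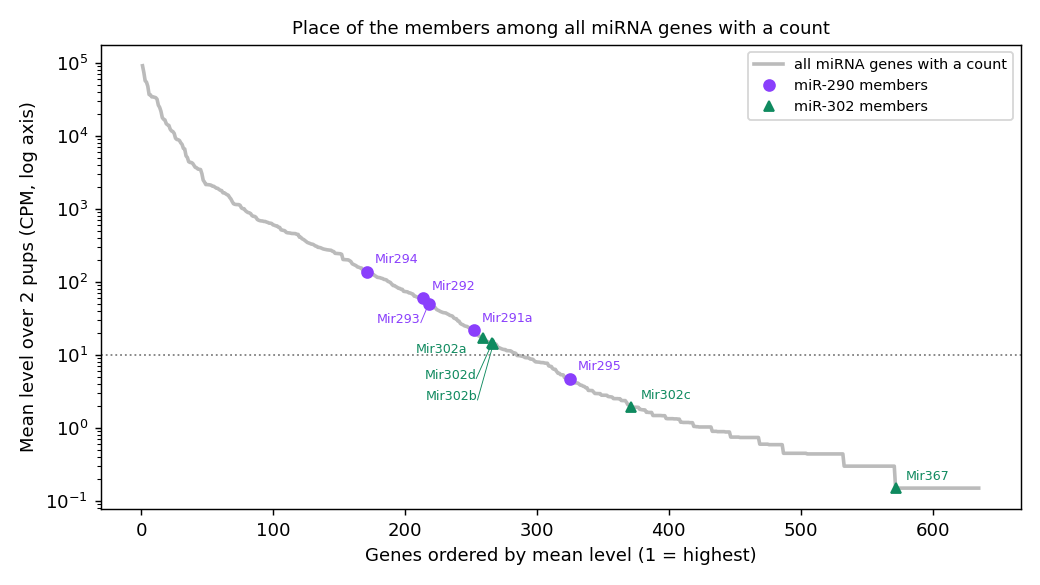
Mean level over 2 pups in CPM on a log axis against the place of each of the 635 miRNA genes with a count, ordered by level; circles are miR-290 members, triangles miR-302 members and the dotted line marks 10 CPM. The 7 members above the dotted line run from Mir294 at 171st place to Mir302b at 267th. Mir295 is at 325th place, Mir302c at 371st and Mir367, among the genes with 1 count, at 572nd.

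Markers of other cell types were read beside the members. The labelled tissue has no miRNA of its own that defines it; Mir375, known from neuroendocrine cells such as those of the adrenal medulla, had 30415 CPM in pup 2, against 37586 CPM in pup 1. Of the other miRNAs known from neuroendocrine cells, Mir7-1 had 438 CPM in pup 2 and 307 CPM in pup 1, and Mir7-2 had 265 CPM in pup 2 and 315 CPM in pup 1. Reads that fit both Mir7-1 and Mir7-2 would not have been assigned to a gene, and their number was not tested. Mir7b, a related gene outside the marker list, had 2293 CPM in pup 2 and 1557 CPM in pup 1. Of Mir375, Mir7b, Mir7-1 and Mir7-2, Mir7b and Mir7-1 were higher in pup 2 and the others were lower. Mir126a of endothelial cells had 102288 CPM in pup 2, against 81621 CPM in pup 1. An X-linked cluster associated with male germ cells had counts for 4 of its 16 genes and none at 10 CPM. It summed to 2.40 CPM in pup 2 (8 counts) and 3.53 CPM in pup 1 (4 counts), led by Mir741 with 1.20 CPM in pup 2 and 1.77 CPM in pup 1, and by Mir471 with 0 and 2 counts. The other 12 genes were at 0 in both pups. Mir122 of the liver had 4081 CPM in pup 2 and 2979 CPM in pup 1, and Mir206 of skeletal muscle had 411 CPM in pup 2 and 82.2 CPM in pup 1. Mir133b of skeletal muscle had 4 counts in pup 2 and 0 in pup 1, and Mir451a of red blood cells had 263 CPM in pup 2, against 261 CPM in pup 1. Mir126a, Mir122 and Mir206 were higher in pup 2, where Mir294 and Mir292 were lower; their part in the member differences was not tested.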

How the data were processed

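MicroRNAs were measured in 1 adrenal library from each of 2 littermates. The authors deposited unscaled read counts for every miRNA gene of each library, from reads placed on mm10 with GENCODE M4 per the deposited sample notes. The aligner is not given in the sources used here. Rows that name no gene (unmapped, multi-mapped, without a feature) held 47.3% of reads in pup 2 and 49.6% in pup 1 and were left out of library sizes.

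Identifiers were matched to GENCODE M21, also mm10, with versions dropped; all 10 members matched. CPM used the same-strand column. A gene counted as detected at 10 CPM in both pups, and as 2-fold apart by log2 ratios with a prior of 1 CPM at a mean of 10 CPM or more. Intervals are exact, at 95%: Poisson for levels, Clopper-Pearson for shares and conditional for ratios (scipy 1.17.1). Only the interval for ratios of levels was tried on simulated data, drawn as Poisson counts for genes at 10 CPM or more. That trial does not cover the intervals of levels, shares or odds, lower levels, or variation beyond counting error. Alternatives used edgeR 4.0.16 (TMM) and DESeq2 1.42.0 size factors, only for scaling. No p-value was computed. All members, every other annotated cluster gene in the tables, the listed markers of other cell types, the 2 highest genes of each other list and the 3 genes nearest to Mir294 were named. The members and lists were chosen with earlier results of these data known.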

Additional observations from a re-analysis of the deposited data

How the results depend on the processing

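Scaled to all reads of the table instead of to gene counts, the miR-290 sum was 141 CPM and the miR-302 sum 24.8 CPM, since about as many reads again entered the denominator. Without Mir294 the miR-290 sum was 137 CPM, and on the unstranded column the miR-302 sum was 46.6 CPM. Leaving out a pup gave 220.0 to 331 CPM for the miR-290 sum, 47.8 to 48.6 CPM for the miR-302 sum and 46.6% to 52.5% for the share of Mir294. With no filter on low values 1 member was 2-fold apart, Mir302c, which rests on 10 counts in pup 2 and 1 in pup 1. The log2 ratio of the miR-290 sum was -0.59 and stayed negative, from -0.59 to -0.42, under every scaling, column, prior and member choice tried. That of the miR-302 sum was -0.02 and turned positive, at 0.08, 0.01 and 0.04, with TMM, DESeq2 or whole-table scaling; these alternatives for the miR-302 sum were added after the data were seen. TMM moved the median log2 ratio of the genes tested, 0.08 as reported, to 0.18 and put Mir291a at 0.09. The number of detected members was 7 with TMM or DESeq2 scaling, on the unstranded column, in either pup alone and at 5 CPM, and 9 with 1 count in both pups as the limit. It was 4 when scaled to all reads of the table, an alternative added after the data were seen, which lowers every CPM while the threshold stays. No paired analysis was possible because the series has a single group. Depth limits the miR-302 comparison, since pup 1 had 55 miR-302 counts in all.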
